A study of Homo sapiens with 8 samples.

Results

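The genes described are the hnRNP and SR splicing factors, taken by name: every symbol beginning with HNRNP or SRSF, together with TRA2A, TRA2B, SRRM1, SRRM2, PTBP1, PTBP2, PTBP3, U2AF1, U2AF2, RALY and SYNCRIP. The rule used no measured value and found 48 of the 23368 symbols in the count table. It also takes in pseudogenes (HNRNPA1P10, HNRNPA3P1, HNRNPKP3), a read-through symbol (HNRNPUL2-BSCL2) and an antisense-named symbol (HNRNPU-AS1). HNRNPCL1 and HNRNPA1P10 had a count of 0 in all 8 libraries, which allows up to 3 counts per library, or 0.236 CPM in the shallowest, where CPM are counts-per-M values on TMM-scaled depth. The other 46 passed the filter on low counts and were tested among 15254 genes.

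All libraries came from HEK293F, a line of human embryonic kidney cells grown in serum, as total RNA prepared with a stranded kit. MOV10, an RNA helicase that associates with FMRP and Argonaute proteins, was lowered with siRNA (knockdown, 2 libraries, replicates 2 and 3) or raised by transfecting myc-tagged MOV10 (overexpression, 3 libraries), and the control cells received an irrelevant siRNA (3 libraries). Both siRNAs were given 3 times at 24 h intervals and the MOV10 plasmid once. No library from cells with an empty plasmid was used here, so MOV10 level and mode of delivery cannot be told apart in any comparison with overexpression. The labels do not say that replicates were separate cultures, so the spread behind every p-value is that between libraries and may be technical in origin.

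Each library held between 12.7 M and 32.8 M counts, and the spread between replicates corresponded to a common biological coefficient of variation of 4.49%. MOV10 stood at 76.8, 76.4 and 91.2 CPM in the control libraries, at 50.6 and 55.5 CPM with knockdown and at 2971, 2916 and 2454 CPM with overexpression. All 8 markers of the HEK293 line were above 1 CPM in every library, with summed levels of 1639 to 1664 CPM in control, 1501 to 1518 CPM with overexpression and 1827 to 1892 CPM with knockdown. Among markers of blood (4 genes), liver (2) and endothelium (2), none was above 1 CPM in every library, and of 4 fibroblast markers COL1A1 was. COL3A1, another of them, averaged 0.886 CPM in control, 2.02 CPM with overexpression and 0.996 CPM with knockdown, and the fibroblast list summed to 57.8 to 64.3, 55.7 to 63.5 and 41.4 to 44.1 CPM in these groups. The part of these marker shifts in the results below was not tested. In bulk RNA, fewer cells of a type and less RNA per cell cannot be told apart.

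SR proteins bind exonic enhancers through their RNA recognition motifs and, through arginine-serine rich domains, help the spliceosome to define exons. hnRNP proteins coat nascent transcripts and often repress exons, so the choice of an exon depends on the balance of both classes at a site. Many genes of both classes also regulate their own RNA: their protein drives inclusion of a so-called poison exon with a premature stop codon, or skipping of a coding exon, and the resulting transcript is degraded by nonsense-mediated decay (NMD).

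In GENCODE 29, at least 1 NMD transcript was annotated for 31 of the 43 protein-coding members tested (72.1%), against 5345 of 12875 coding genes tested (41.5%), and for 12 of the 12 SR genes. Members also had more annotated transcripts, with a median of 11 against 7, which by itself gives more room for an NMD form. Retained-intron transcripts were annotated for 69.8% of the members and 56.1% of all genes. A search for internal exons that lie between joined exons of the principal coding transcript and hold the premature stop found 7 exons in 6 of 47 annotated members: HNRNPL, SRRM2, SRSF3, SRSF4, SRSF6 and SRSF9.

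The exons of SRSF3, SRSF4 and SRSF6 show what such an element looks like in SR genes, and SRSF3 and SRSF6 are among the genes whose counts changed below. They are written from the first base of the exon to the stop codon, which is in capitals, on the GRCh38 build, with the transcript strand. The SRSF3 stretch lies at chr6:36599821-36599854 on the plus strand, in an exon of 456 bases of SRSF3-203. The SRSF4 stretch lies at chr1:29160018-29160058 on the minus strand, in an exon of 195 bases of SRSF4-204. The SRSF6 stretch lies at chr20:43459153-43459304 on the plus strand, in an exon of 268 bases of SRSF6-202.
SRSF3: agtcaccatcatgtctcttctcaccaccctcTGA
SRSF4: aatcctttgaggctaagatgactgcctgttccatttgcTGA
SRSF6: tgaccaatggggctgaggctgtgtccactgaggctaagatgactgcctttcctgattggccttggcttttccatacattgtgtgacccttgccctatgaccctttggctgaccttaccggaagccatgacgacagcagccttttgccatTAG
The reading frame is closed after 34 bases in SRSF3, 41 in SRSF4 and 152 in SRSF6. SRSF4 and SRSF6, which are close paralogs, share an unbroken run of 20 bases in these stretches, tgaggctaagatgactgcct. GENCODE gives the SRSF6 transcript a support level of 2, the SRSF4 transcript 3 and the SRSF3 transcript 5, the weakest grade. The deposited counts are per gene and add coding and NMD forms together, so a change in a count says nothing of which form moved.

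In control cells the genes spanned a wide range of levels. Per kilobase of the principal transcript, SRSF1, the founding SR protein, stood highest at 582 ± 18.6 CPM per kb (SD, n = 3), followed by HNRNPA2B1, a core hnRNP, at 405 ± 6.37 and HNRNPAB at 291 ± 6.12. These 3 were separated by far more than their spread. HNRNPUL1 (224 ± 1.85), HNRNPM (222 ± 6.97) and SRSF9 (218 ± 4.03 CPM per kb) came next, well below HNRNPAB. The range of HNRNPM over libraries overlapped those of HNRNPUL1 and SRSF9, while HNRNPUL1 lay above SRSF9, and SRSF9 above U2AF2 (206 ± 3.73), in every library. PTBP1, the broadly expressed polypyrimidine tract binding protein, reached 151 ± 2.10 CPM per kb, while PTBP2, its paralog best known from neurons, reached 8.60 ± 0.36. The order depends on the length used: over all annotated exonic bases HNRNPA2B1 ranked 1, SRSF1 ranked 2, HNRNPM ranked 12 and SRSF9 ranked 18. HNRNPA1, at 36.5 CPM per kb, has many near-identical copies in the genome, and how reads with several alignments were counted is not given in the sources used here, so its level is uncertain.

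**Figure D1:**
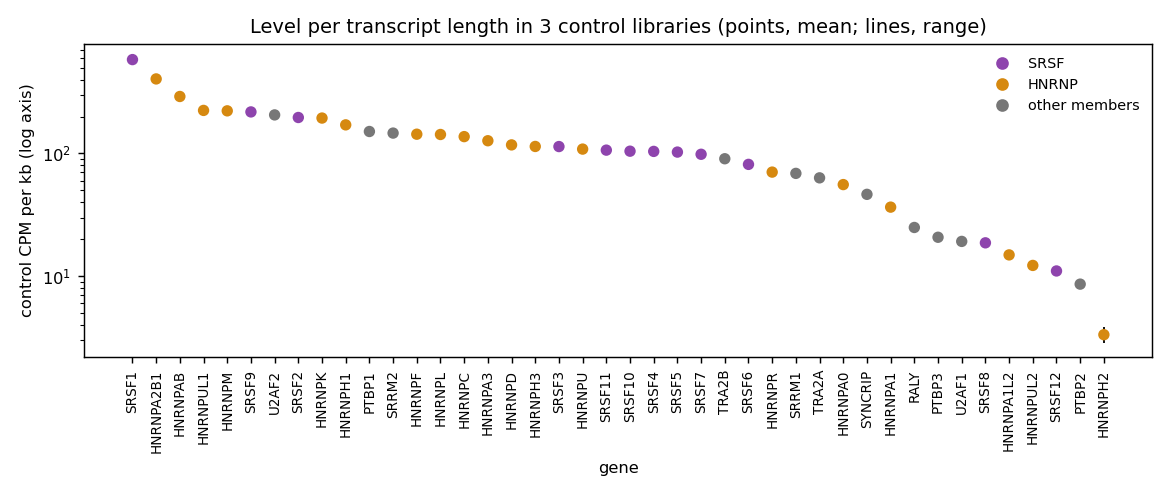
Level in the 3 control libraries of each annotated member with at least 1 CPM in every library. Values are CPM per kilobase of principal transcript on a log axis, with the mean as a point and the range over libraries as a bar. SRSF1 and HNRNPA2B1 lie at the top, at 582 and 405 CPM per kb.

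With MOV10 overexpression the hnRNP side of the set was lower and the SR side was mixed. HNRNPM had the lowest level relative to control among well-expressed members, and PTBP1, PTBP2, both U2AF subunits, HNRNPU, HNRNPUL1, HNRNPR and RALY also fell. SRSF3 and SRSF7 rose while SRSF6 and SRSF9 fell. By edgeR's quasi-likelihood test at a Benjamini-Hochberg adjusted p under 0.05, 19 of the 46 tested members were lower (41.3%) and 5 were higher (10.9%). Among all 15254 genes, 24.1% were lower and 25.2% were higher, 49.2% in all, so the share called either way (52.2%) was near that of all genes and the split between directions was not. The members' median log2 fold change was -0.09, against 0.01 over all genes. In 19 members every overexpression library lay below every control library (background 27.5%), and in 6 every one lay above (background 28.5%).

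With MOV10 knockdown 6 of 12 SR proteins were higher, 1 was lower and 5 were not called, and most hnRNP genes were not called. SRSF2, SRSF3, SRSF6, SRSF7, SRSF8, SRSF11, TRA2A, TRA2B, U2AF2, HNRNPF and HNRNPU rose. SRSF9, HNRNPR, HNRNPA3 and the pseudogene HNRNPA3P1 fell. The 11 higher members made up 23.9% of those tested and the 4 lower ones 8.70%, against 19.9% higher and 19.1% lower over all genes (39% in all). The median log2 fold change was 0.03 for the members and -0.00095 over all genes. With library totals as scaling these medians were -0.0148 and -0.047, and 7 members were higher, against 2353 of all 15254 genes. In 16 members both knockdown libraries lay above every control library (background 32.5%), and in 6 both lay below (background 31.1%). The calls of higher members depend on knockdown replicate 2, the deepest library: without it all but SRSF3, SRSF6 and TRA2B were lost. Calls over all genes also became fewer, in a fit that assumes the lone knockdown library to vary like the other groups. The median log2 fold change in that fit was 0.0024 for the members and -0.0046 over all genes.

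**Figure D2:**
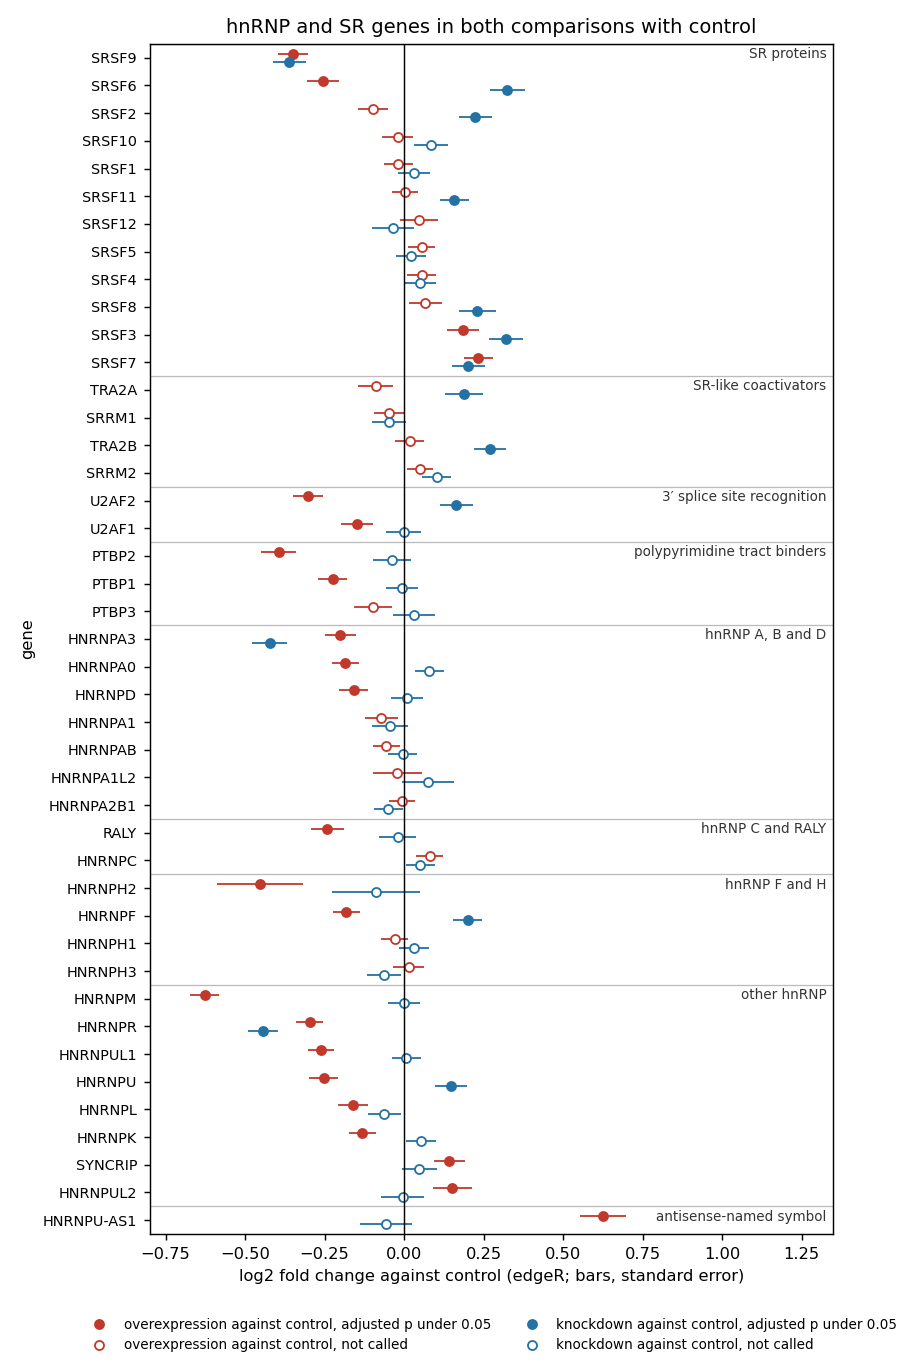
Log2 fold change of each member with at least 1 CPM in every library (43 genes), by role, with overexpression against control in red and knockdown against control in blue; bars are standard errors and filled points passed an adjusted p under 0.05 (edgeR). The red points of the hnRNP and PTBP blocks lie mostly left of 0, with HNRNPM at -0.63, and the filled blue points of the SR block lie right of 0 except SRSF9 at -0.36.

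Among the 12 SR proteins, 2 rose and 2 fell with overexpression, with a median log2 fold change of 0.03, and 6 rose and 1 fell with knockdown, with a median of 0.12. The share called was 33.3% with overexpression and 58.3% with knockdown, against 49.2% and 39% of all genes, and of the 6 that rose with knockdown SRSF3 and SRSF6 were also called without knockdown replicate 2. SRSF6, whose annotated poison exon is printed above, stood at 363.5, 352 and 341 CPM in the control libraries, at 459 and 423 CPM with knockdown and at 297.5, 279 and 309.9 CPM with overexpression. No groups overlapped: knockdown was highest and overexpression lowest. Its log2 fold change was 0.32 ± 0.05 (SE) with knockdown (adjusted p = 8.63e-05, edgeR) and -0.26 ± 0.05 with overexpression (adjusted p = 0.000251). SRSF9, a short SR protein, had 266, 257 and 262 CPM in control, 207 and 201 CPM with knockdown and 212, 209 and 195 CPM with overexpression. Every treated library was below every control library, and knockdown and overexpression overlapped. The log2 fold changes were -0.36 ± 0.05 with knockdown (adjusted p = 1.61e-05) and -0.35 ± 0.05 with overexpression (adjusted p = 3.92e-06), both from edgeR and both against the same control libraries.

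SRSF3 and SRSF7, small SR proteins that also take part in mRNA export and polyadenylation, were higher in both comparisons, which share their controls. SRSF3 had 501.5, 487 and 453 CPM in control, 632.5 and 567 CPM with knockdown and 557, 550.4 and 531 CPM with overexpression. All treated libraries lay above the controls, by a log2 fold change of 0.32 ± 0.05 with knockdown (edgeR adjusted p = 0.000101) and 0.19 ± 0.05 with overexpression (adjusted p = 0.00378). SRSF7 had 289, 275 and 279.7 CPM in control, 327 and 319.6 CPM with knockdown and 329.8, 314 and 349 CPM with overexpression. Here too no treated library reached down to the controls. Its log2 fold change was 0.20 ± 0.05 with knockdown (edgeR adjusted p = 0.00427, and 0.072 without knockdown replicate 2) and 0.23 ± 0.05 with overexpression (adjusted p = 0.000342).

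SRSF2 and SRSF8, the latter derived from a copy of SRSF2, rose with knockdown. SRSF2 (SC35), a component of nuclear speckles, had 586, 569 and 544 CPM in control, 692 and 631 CPM with knockdown and 521, 545 and 523 CPM with overexpression. The knockdown libraries lay above all others, and overexpression overlapped control at 1 library. The log2 fold change with knockdown was 0.22 ± 0.05 (edgeR adjusted p = 0.00163), and with overexpression it was -0.10 ± 0.05 (adjusted p = 0.084). SRSF8 had 76.6, 77.5 and 71.5 CPM in control, 90.6 and 85.9 CPM with knockdown and 78.4, 78.7 and 79.8 CPM with overexpression. Only the change with knockdown passed the test, at 0.23 ± 0.06 on the log2 scale (edgeR adjusted p = 0.00303). SRSF11 rose with knockdown by 0.16 (log2; edgeR adjusted p = 0.00966). Without knockdown replicate 2 none of these 3 passed, with adjusted p-values of 0.099 for SRSF2, 0.092 for SRSF8 and 0.141 for SRSF11. SRSF1, SRSF4, SRSF5, SRSF10 and SRSF12 passed in neither comparison with control.

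The SR-like coactivators TRA2A and TRA2B, which bind purine-rich enhancers, rose with knockdown, and SRRM1 and SRRM2, large matrix proteins of the speckle, were not called. TRA2B had 416, 404 and 398 CPM in control, 514 and 465 CPM with knockdown and 410.3, 412 and 410.3 CPM with overexpression. The knockdown libraries stood apart from both other groups, which overlapped. Its log2 fold change was 0.27 ± 0.05 with knockdown (edgeR adjusted p = 0.000243) and 0.02 ± 0.05 with overexpression (adjusted p = 0.775). TRA2A had 146, 139 and 138 CPM in control, 163 and 158 CPM with knockdown and 132, 122 and 144 CPM with overexpression. Knockdown was again above every other library, with a log2 fold change of 0.19 ± 0.06 (edgeR adjusted p = 0.0173). The TRA2A call was lost with library totals as scaling and without any 1 of 4 libraries (either knockdown replicate, control replicate 2 or control replicate 3), with adjusted p-values up to 0.167.

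U2AF2 and U2AF1 form the heterodimer that recognises the polypyrimidine tract and the AG of the 3′ splice site, and both fell with overexpression. U2AF2 had 624, 611 and 634 CPM in control, 705 and 691 CPM with knockdown and 513, 534 and 466 CPM with overexpression. The groups did not overlap, with control in the middle. The log2 fold change was -0.30 ± 0.05 with overexpression (edgeR adjusted p = 2.6e-05) and 0.16 ± 0.05 with knockdown (adjusted p = 0.0173). The rise with knockdown was not called with library totals (adjusted p = 0.081), without knockdown replicate 2 (0.147) or without control replicate 2 (0.074). U2AF1 fell by 0.15 on the log2 scale with overexpression (edgeR adjusted p = 0.0177), a call lost with library totals and without control replicate 1 or 3, and was at -0.00 with knockdown.

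Of the polypyrimidine tract binders, which repress exons and compete with U2AF for its tract, PTBP1 and PTBP2 fell with overexpression and none was called with knockdown. PTBP2 had 106, 105 and 98.2 CPM in control, 100.1 and 101 CPM with knockdown and 80.6, 73.1 and 82.9 CPM with overexpression. All overexpression libraries were below all others, while knockdown and control overlapped. It changed by a log2 fold change of -0.39 ± 0.06 with overexpression (edgeR adjusted p = 7.69e-06) and -0.04 ± 0.06 with knockdown (adjusted p = 0.655). PTBP1, whose protein represses a PTBP2 exon needed for a full-length product, changed by -0.22 ± 0.05 with overexpression (edgeR adjusted p = 0.000369) and by -0.01 ± 0.05 with knockdown, which was not called. PTBP3 was called in neither.

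In the A, B and D group, which holds the core particle proteins, 3 of 7 fell with overexpression and 1 with knockdown. These were 42.9% and 14.3% of the group, against 24.1% and 19.1% of all genes, and a group of 7 is too small to tell such shares apart. HNRNPA3 had 723, 734 and 709 CPM in control, 536 and 541 CPM with knockdown and 615, 587 and 684 CPM with overexpression. Knockdown was lowest, overexpression stood between, and no groups overlapped. The log2 fold change was -0.42 ± 0.06 with knockdown (edgeR adjusted p = 5.5e-06) and -0.20 ± 0.05 with overexpression (adjusted p = 0.00198). Its pseudogene HNRNPA3P1, under 1 CPM in every library, changed by -1.61 ± 0.45 with knockdown (edgeR adjusted p = 0.0078, and 0.067 without knockdown replicate 3) and -1.53 ± 0.42 with overexpression (adjusted p = 0.00528). Over the alternatives its log2 fold change with knockdown ran from -2.73 to -1.20. Reads of such near-identical copies may be split or shared between the gene and its copy, so both values are uncertain. HNRNPA0 and HNRNPD fell with overexpression by 0.18 and 0.16 on the log2 scale (edgeR adjusted p = 0.00095 and 0.00571), and HNRNPA1, HNRNPA2B1 and HNRNPAB, from the same family, were not called in either comparison.

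HNRNPC, which binds uridine tracts and helps to keep cryptic exons out, was not called, whereas its relative RALY fell with overexpression. RALY had 159, 156 and 165 CPM in control, 160.3 and 155 CPM with knockdown and 136, 144 and 125 CPM with overexpression. The overexpression libraries were below all others. Its log2 fold change was -0.24 ± 0.05 with overexpression (edgeR adjusted p = 0.000799) and -0.02 ± 0.06 with knockdown (adjusted p = 0.823). In the F and H group, which binds runs of guanines, HNRNPF had 402, 391 and 393 CPM in control, 462 and 445 CPM with knockdown and 356, 345.5 and 343 CPM with overexpression. The groups did not overlap, again with control in the middle. HNRNPF had a log2 fold change of 0.20 ± 0.05 with knockdown (edgeR adjusted p = 0.00209, and 0.063 without knockdown replicate 2) and -0.18 ± 0.04 with overexpression (adjusted p = 0.00132). HNRNPH2, at 6.34 to 8.55 CPM in control and 4.59 to 6.37 CPM with overexpression, was also called (log2 fold change -0.45 ± 0.14, edgeR adjusted p = 0.00862), but these libraries overlapped and the call was lost without overexpression replicate 1 or control replicate 3. HNRNPH1 and HNRNPH3 were not called.

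All 8 of the other hnRNP proteins were called with overexpression, against 49.2% of all genes. Of these, 6 were lower (75%) and 2 higher (25%), against 24.1% and 25.2% of all genes, and their median was -0.21 on the log2 scale. The group is small, and the calls of HNRNPUL2, SYNCRIP and HNRNPK were lost under some alternatives, as given below. With knockdown 1 was higher and 1 lower (12.5% each), against 19.9% and 19.1% of all genes. HNRNPM, which binds GU-rich sequence and is a regulator of exon skipping, had 589.8, 569.9 and 554 CPM in control, 588 and 554.5 CPM with knockdown and 385, 366 and 358 CPM with overexpression. Overexpression libraries lay far below the rest, and knockdown and control covered the same range. HNRNPM had a log2 fold change of -0.63 ± 0.05 with overexpression (edgeR adjusted p = 1.93e-09), the largest fall among members above 1 CPM, and -0.00 ± 0.05 with knockdown (adjusted p = 0.999). HNRNPR, a close relative of SYNCRIP found in the nucleus and in axons, had 553, 537 and 525 CPM in control, 397.5 and 394.5 CPM with knockdown and 447, 424 and 445 CPM with overexpression. It was lower than control in every treated library and lowest with knockdown. Its log2 fold change was -0.44 ± 0.05 with knockdown (edgeR adjusted p = 5.27e-07) and -0.30 ± 0.04 with overexpression (adjusted p = 9.83e-06).

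HNRNPU (SAF-A), a nuclear scaffold protein that binds chromatin-associated RNA, had 1424, 1442 and 1392 CPM in control, 1598 and 1548 CPM with knockdown and 1188, 1119 and 1267 CPM with overexpression. The groups did not overlap. The log2 fold change was -0.25 ± 0.04 with overexpression (edgeR adjusted p = 9.19e-05) and 0.15 ± 0.05 with knockdown (adjusted p = 0.0219). The rise with knockdown was lost with library totals (adjusted p = 0.097), with the replicate number as a block (0.053), and without knockdown replicate 2 (0.197), knockdown replicate 3, control replicate 1 or control replicate 3. HNRNPU-AS1 had 139, 157 and 155 CPM in control, 134 and 156 CPM with knockdown and 213, 219 and 266 CPM with overexpression. The overexpression libraries stood above all others, with a log2 fold change of 0.63 ± 0.07 (edgeR adjusted p = 8.46e-07), the largest rise of any member, against -0.06 ± 0.08 with knockdown (adjusted p = 0.619). This symbol has no entry in GENCODE 29, and the RefSeq gene table lists it as a synonym of HNRNPU. The strand setting of the counting is not given in the sources used here, so reads of the gene and of an antisense partner cannot be told apart.

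HNRNPUL1, a relative of HNRNPU, had 795, 805 and 792 CPM in control, 819.9 and 782 CPM with knockdown and 659, 687 and 648 CPM with overexpression. Only overexpression stood apart, at a log2 fold change of -0.26 ± 0.04 (edgeR adjusted p = 2.81e-05). HNRNPL, which binds CA repeats, and HNRNPK, which binds cytosine-rich sequence, fell with overexpression by 0.16 and 0.13 on the log2 scale (edgeR adjusted p = 0.00725 and 0.0138). The HNRNPK call was lost with library totals and without control replicate 1, as was that of HNRNPD without control replicate 1. SYNCRIP (0.14, adjusted p = 0.0221) and HNRNPUL2 (0.15, adjusted p = 0.0476) rose by edgeR's test. The HNRNPUL2 libraries overlapped those of control, and the call was lost under most alternatives, DESeq2 and limma-voom among them. The SYNCRIP call was lost without overexpression replicate 3 or any 1 control library.

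**Figure D3:**
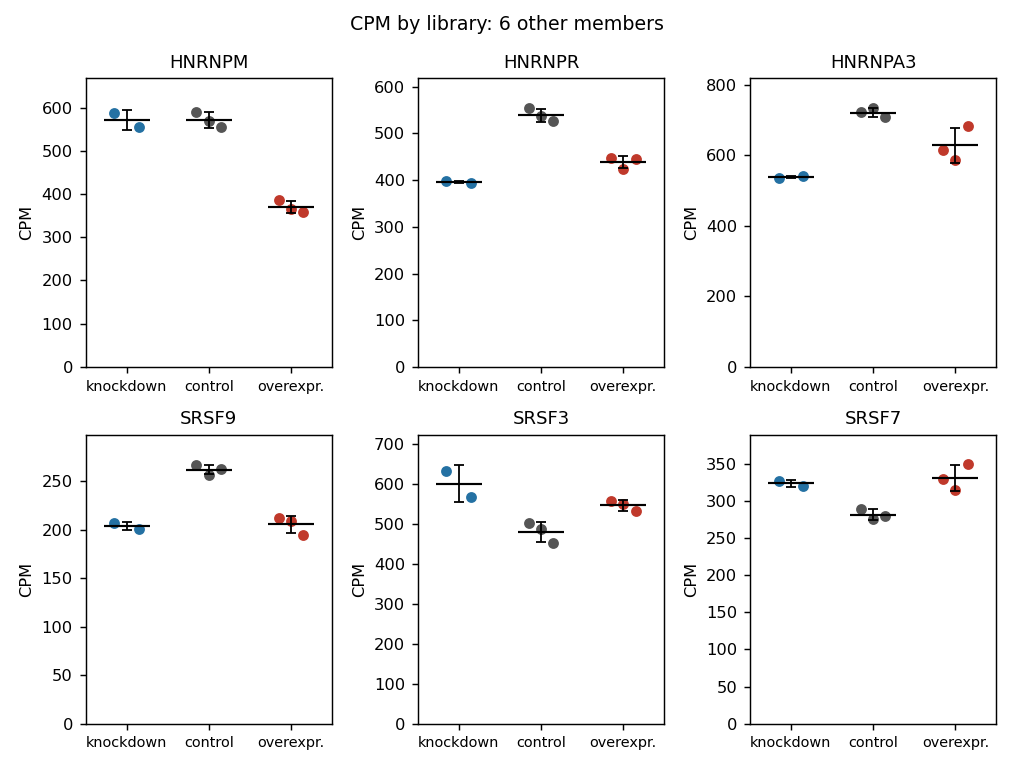
CPM in each library for HNRNPM, HNRNPR, HNRNPA3, SRSF9, SRSF3 and SRSF7, with the group mean as a line and the SD as a bar (2 knockdown, 3 control and 3 overexpression libraries). HNRNPM is low only in the overexpression libraries (358 to 385 CPM), HNRNPR, HNRNPA3 and SRSF9 lie below control in both treatments, and SRSF3 and SRSF7 lie above it in both.

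The 4 members HNRNPF, HNRNPU, SRSF6 and U2AF2 were called in opposite directions: they rose with knockdown and fell with overexpression. As given above, the calls of HNRNPF, HNRNPU and U2AF2 with knockdown depended on knockdown replicate 2. In the test against a fold of 1.2, none of the 4 was called in either comparison with control. The share of all genes called in opposite directions was not counted, so whether 4 members are many is not known. Both comparisons use the same control libraries. The direct contrast of overexpression with knockdown gave log2 fold changes of -0.38 ± 0.05 for HNRNPF (edgeR adjusted p = 9.2e-07), -0.40 ± 0.05 for HNRNPU (9.52e-07), -0.58 ± 0.05 for SRSF6 (2.99e-08) and -0.47 ± 0.05 for U2AF2 (2.98e-07). No knockdown library of these genes reached down to an overexpression library. The genes were chosen for opposite calls in the same fit, and the direct contrast is the difference of those changes. Its small p-values and this separation follow largely from that choice and are not separate evidence.

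**Figure D4:**
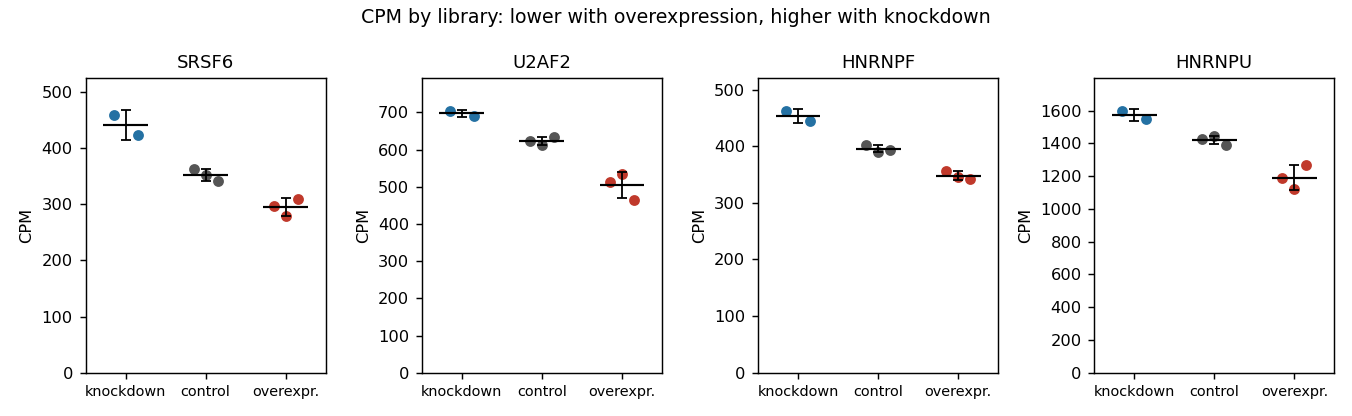
CPM in each library for HNRNPF, HNRNPU, SRSF6 and U2AF2, with the group mean as a line and the SD as a bar. In each gene the knockdown libraries are highest and the overexpression libraries lowest, for SRSF6 423 to 459 against 279 to 309.9 CPM.

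The promoters of these 4 genes are shown because their counts moved together. The windows hold the 150 bases before the annotated start, from RefSeq on GRCh38.p14, in the direction of transcription. They are chr10:43408858-43409007 on the minus strand for HNRNPF (the farther upstream of its 2 windows), chr1:244864544-244864693 on the minus strand for HNRNPU, chr20:43457746-43457895 on the plus strand for SRSF6 and chr19:55654885-55655034 on the plus strand for U2AF2. Capitals mark GGGCGG (the GC box), CCAAT or CCGGAA (the core of ETS factor sites) on either strand.
HNRNPF: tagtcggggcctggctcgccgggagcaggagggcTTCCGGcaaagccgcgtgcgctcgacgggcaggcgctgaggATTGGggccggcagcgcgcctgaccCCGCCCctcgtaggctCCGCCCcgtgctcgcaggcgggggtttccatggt
HNRNPU: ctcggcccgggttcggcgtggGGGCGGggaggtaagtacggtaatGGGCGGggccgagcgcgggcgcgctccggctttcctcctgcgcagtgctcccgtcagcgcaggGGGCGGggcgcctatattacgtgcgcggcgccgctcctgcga
SRSF6: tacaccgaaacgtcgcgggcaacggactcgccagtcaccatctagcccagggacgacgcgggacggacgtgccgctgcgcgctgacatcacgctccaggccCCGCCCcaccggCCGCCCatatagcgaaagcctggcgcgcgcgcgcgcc
U2AF2: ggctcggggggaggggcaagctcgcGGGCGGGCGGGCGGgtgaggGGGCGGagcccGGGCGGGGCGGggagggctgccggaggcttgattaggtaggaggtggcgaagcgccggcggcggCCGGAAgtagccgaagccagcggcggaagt
All 4 windows hold GGGCGG, 2 times in HNRNPF, 3 in HNRNPU, 2 in SRSF6 and 6 in U2AF2, where matches overlap. Over the 41 members with a promoter entry, 68.3% held GGGCGG, against 40.7% of 27305 genes. These 27305, called all genes in this paragraph, are the genes with a promoter entry, not only those tested here. Shares among the tested genes alone were not counted, so whether the differences below and above are particular to the members was not tested. CCAAT was in 39.0% of the members and 27.8% of all genes, CCGGAA in 19.5% and 13.4%, CACGTG (the E-box) in 12.2% and 5.6%, and TATAAA in 9.8% and 8.3%. The median window of the members held 16 CpG dinucleotides against 7 over all genes. GGGCGG holds a CpG itself, so its share and the CpG count are not independent, and a match describes letters, not binding.

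Between overexpression and knockdown directly, 20 of 46 members were lower and 3 higher with overexpression (edgeR adjusted p under 0.05), or 43.5% and 6.52%, against 28.1% lower and 29.3% higher over all genes (57.4% in all). The median log2 difference was -0.12 for the members and 0.02 over all genes. In 23 members every overexpression library lay below both knockdown libraries (background 33.7%), and in 6 every one lay above (background 35.4%). The counts depend on scaling: with library totals in place of TMM factors 12 members were lower and 10 higher. Over all genes 3001 were then lower and 5709 higher, and their median moved from 0.02 to 0.10. Relative to all genes, the members leaned lower under both scalings. Beside the 4 genes above, HNRNPM (-0.63 ± 0.05, adjusted p = 4.51e-09), PTBP2 (-0.36 ± 0.06, adjusted p = 4.76e-05), SRSF2 (-0.32 ± 0.05, adjusted p = 2.05e-05), TRA2A (-0.28 ± 0.06, adjusted p = 0.000571) and HNRNPUL1 (-0.27 ± 0.05, adjusted p = 4.7e-05) differed most among the lower ones whose mean log2 CPM was 3 or more. HNRNPH2, below that level, was also lower (-0.37 ± 0.14, adjusted p = 0.0359), a call lost under 6 alternatives. The 3 higher members were HNRNPU-AS1 (0.68 ± 0.08, adjusted p = 7.5e-07), HNRNPA3 (0.22 ± 0.06, adjusted p = 0.00175) and HNRNPR (0.15 ± 0.05, adjusted p = 0.0125). The HNRNPR call was lost with the replicate block and without either knockdown replicate, with adjusted p-values up to 0.083. For SRSF9 the difference was 0.01 ± 0.05 (edgeR adjusted p = 0.851) and for SRSF7 0.03 ± 0.05 (adjusted p = 0.61), so these data did not separate the treatments there.

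Summed levels describe the gene-level RNA of both classes, not their proteins. The sums are not scaled by length, so long and abundant genes weigh most, and they add coding and NMD forms. They leave out the PTBP and TRA2 genes, RALY and SYNCRIP. The 12 SR genes summed to 4313 ± 86.3 CPM in control (SD, n = 3), to 4289.9 ± 78.8 CPM with overexpression (n = 3) and to 4720.1 ± 169 CPM with knockdown (n = 2). The 19 protein-coding HNRNP genes summed to 11655 ± 161 CPM in control, to 10637 ± 343 CPM with overexpression and to 11516 ± 288 CPM with knockdown. The SR sum per hnRNP sum, which is free of library scaling, was 0.373, 0.370 and 0.368 in control, 0.403, 0.409 and 0.398 with overexpression, and 0.413 and 0.407 with knockdown. Every treated library lay above every control library. Relative to control, the hnRNP sum was lower in all overexpression libraries, and the SR sum was higher in both knockdown libraries. The exact two-sided permutation test gave p = 0.1 for the ratio in either comparison with control, the smallest these group sizes allow, and p = 0.3 between treatments. The same exact permutation test gave p = 0.1 for the hnRNP sum with overexpression and p = 0.6 with knockdown, and p = 0.7 and p = 0.1 for the SR sum. All members together took 2.04% ± 0.016 of the counts in control, 1.98% ± 0.034 with overexpression and 2.03% ± 0.034 with knockdown.

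**Figure D5:**
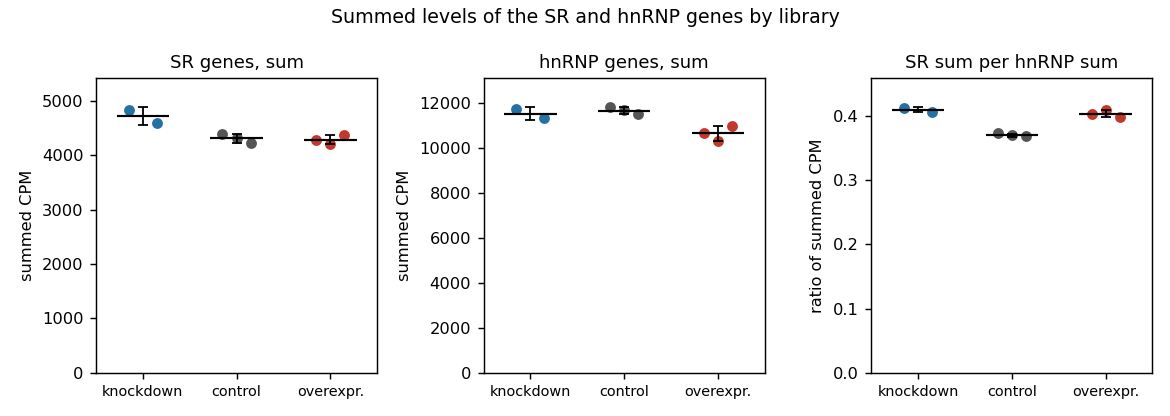
Summed CPM of the 12 SR genes, summed CPM of the 19 HNRNP genes and their ratio in each library, with the group mean as a line and the SD as a bar; all axes start at 0. The ratio is 0.368 to 0.373 in the control libraries and 0.398 to 0.413 in the treated ones.

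Other parts of the splicing machinery were counted from lists chosen for their role. Earlier results of these data were known when the lists were made, so their shares are descriptions only. Of 45 tested core snRNP genes, 27 were lower and 2 higher with overexpression, with a median log2 fold change of -0.18, and 13 were higher and 4 lower with knockdown, with a median of 0.10. That was 60% lower and 4.44% higher with overexpression, against 24.1% and 25.2% of all genes, and 28.9% higher and 8.89% lower with knockdown, against 19.9% and 19.1%. SF3A1 and PRPF8, of the U2 and U5 particles, fell with overexpression by 0.51 and 0.40 on the log2 scale, and PRPF4 of the U4/U6 particle fell by 0.57 with knockdown. Of 18 SR-related proteins, 3 rose and 4 fell with overexpression (LUC7L3 at 0.42 and SCAF1 at -0.40), and 12 rose with knockdown, among them BCLAF1 at 0.38, ACIN1 at 0.34, SCAF8 at 0.33 and SON, a speckle scaffold, at 0.24. The share of SR-related genes called was 38.9% with overexpression (all genes 49.2%), and the share higher with knockdown was 66.7% (all genes 19.9%). Of 17 hnRNP-like proteins outside the name, 1 rose and 8 fell with overexpression, led by RBM3, a cold-inducible RNA-binding protein, at -0.68, and 3 rose and 4 fell with knockdown. Of this list 47.1% were lower with overexpression (all genes 24.1%), and 41.2% were called with knockdown (all genes 39%).

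Of 9 tested genes for the kinases and the importer of SR proteins, which phosphorylate them and carry them into the nucleus, 3 rose and 2 fell with overexpression, and 4 rose and 1 fell with knockdown, or 55.6% called in each, against 49.2% and 39% of all genes. CLK1, a nuclear kinase of SR proteins, was at 0.47 ± 0.05 with overexpression (edgeR adjusted p = 3.86e-07) and at 0.42 ± 0.06 with knockdown (adjusted p = 8.89e-06). SRPK1, the cytoplasmic kinase, was at -0.14 and -0.17, and TNPO3, the importer, fell by 0.17 with overexpression. Of 37 tissue and developmental splicing regulators, 14 rose and 13 fell with overexpression and 13 rose and 12 fell with knockdown. These were 73.0% and 67.6% of that list, against 49.2% and 39% of all genes. MBNL1, which antagonises fetal splicing patterns, was at 0.74 and 0.70 on the log2 scale.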

How the data were processed

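RNA of 8 HEK293F libraries was sequenced. The deposited values are raw read counts per gene symbol. The submitters' processing notes name TopHat2 (2.0.8) and build hg19, the counter HTSeq (0.5.3p9), and also edgeR, SAMtools (0.1.18), Trimmomatic (0.22) and CASAVA (1.8.2). How strand and multiply aligned reads were treated is unstated: not given in the sources used. Groups and replicate numbers came from sample titles.

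In R 4.3.3 with edgeR 4.0.16, genes were filtered (filterByExpr, minimum count 10, minimum total 15), scaled by TMM and tested two-sided by quasi-likelihood (glmQLFit, glmQLFTest), all libraries in 1 fit. P-values were Benjamini-Hochberg adjusted over 15254 genes. CPM use TMM-scaled totals. The script was checked on simulated data. Sums were compared by exact permutation tests. Alternatives were size factors, library totals, other filters, DESeq2 1.42.0, limma-voom (limma 3.58.1), only the compared groups, MOV10 left out, a replicate block, a fold threshold, other member rules and each library left out.

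Members and lists were chosen with earlier results of these data known. Values in every library are given for up to 10 called members per comparison with the largest change (mean log2 CPM 3 or more) and for members called in opposite directions; up to 4 genes per other list, by adjusted p, may be named. Lengths, transcripts and exons came from GENCODE 29 (47 of 48 members matched) and promoters from RefSeq (41 of 48), both on another build than the counts, so they serve for names and sequences only. Protein features were not analysed here.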

Additional observations from a re-analysis of the deposited data

How the results depend on the processing

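The members' median with knockdown changed sign with library totals, and the median over all genes moved with it, from -0.00095 to -0.047. No called member changed direction in the alternatives run. For the members with the largest changes and those called in opposite directions, 559 of 594 recomputed calls kept their side of the threshold. Over all called members a larger share of calls was lost. A test against a fold of 1.2 kept 4 of 24 with overexpression, 3 of 15 with knockdown and 6 of 23 between treatments. Library totals kept 22, 11 and 15 of these. With library totals the members' median log2 fold change was -0.053 with overexpression (0.055 over all genes) and -0.0148 with knockdown. With knockdown 7 members were higher, against 2353 of all 15254 genes. Between treatments 10 members were higher and 12 lower, against 5709 and 3001 of all genes. The median there was -0.0313 for the members and 0.103 over all genes. Testing against a fold of 1.2 left 1 of 46 members higher and 3 lower with overexpression, against 1491 and 859 of 15254 genes. With knockdown 0 were higher and 3 lower, against 722 and 978 of all genes. Between treatments 1 was higher and 5 lower, against 2475 and 1522. The 0 is from edgeR's glmTreat, where 1 was higher at an unadjusted p under 0.05, and no other tool was run with that threshold.

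Leaving out 1 library at a time, the members higher with overexpression numbered 3 to 5 and those lower 16 to 21, with medians of -0.097 to -0.063. Over all genes 3142 to 3974 were higher and 2964 to 3874 lower in these fits. With knockdown 3 to 12 were higher and 3 to 4 lower, with medians of 0.0024 to 0.044. Between treatments 2 to 6 were higher and 13 to 24 lower, with medians of -0.156 to -0.075. The lowest counts of higher members with knockdown and of lower members between treatments were those without knockdown replicate 2. Over all genes, too, calls in those comparisons were fewest without that library. With knockdown, the fits that kept both its libraries called 2420 to 3749 of all genes higher and 2308 to 3484 lower. Between treatments those fits called 3998 to 4607 of all genes higher and 3818 to 4541 lower. With overexpression 3 higher members were left without overexpression replicate 3 or any 1 control library. The cause was not tested.

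Same-numbered libraries showed no common deviation over all genes (correlations of -0.085 to 0.090). The deviations were taken from means of 2 or 3 libraries, which ties them together within a group. These values therefore cannot show whether the numbers mark pairs. With the replicate block 5 members were higher and 19 lower with overexpression, 10 and 4 with knockdown, and 2 and 19 between treatments. Over all 15254 genes these counts were 3649 and 3468, 2612 and 2557, and 4123 and 3953. HNRNPU with knockdown had an edgeR adjusted p of 0.053 in that fit.

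Depth limits the symbols under 1 CPM, HNRNPA3P1, HNRNPKP3 and HNRNPUL2-BSCL2, whose fold changes carry large errors.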
